A study of Rattus norvegicus with 16 samples.

Results

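Lumican (Lum), decorin (Dcn), biglycan (Bgn), fibromodulin (Fmod), osteoglycin (Ogn) and prolargin (Prelp) are small leucine-rich proteoglycans of the extracellular matrix, and Pdgfra and Gsn are genes in common use as fibroblast markers. These 8 genes, 6 of them proteoglycans, were chosen by name from the annotation of an Affymetrix rat array, on which they are read by 11 of 31099 probe sets. Lum is read by 1367749_at, Dcn by 1370956_at, Bgn by 1367594_at, Fmod by 1367700_at, Prelp by 1387886_at, Pdgfra by 1370941_at, Gsn by 1371414_at and Ogn by 4. All 8 were among the 10416 genes, of 14218 named genes on the array, that passed a filter on low values. Messenger RNA had been measured on 16 arrays from 4 rats, numbered 15, 25, 27 and 29, with 1 array for each rat in each of 4 groups. The groups were junction regions of the rectus extraocular muscles (EOM_synapse), junction regions of the limb muscle tibialis anterior (TA_synapse), extrasynaptic fibre regions of the extraocular muscles (EOM_fiber) and extrasynaptic fibre regions of tibialis anterior (TA_fiber). All rats were killed with CO2 and no other treatment is named. The labels used here give no strain, sex or age.

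The regions were cut by laser from 10 µm frozen sections stained for acetylcholinesterase, about 1000 junctions and an equal amount of fibre per muscle, so each array holds pooled regions of 1 animal and the muscle cells, nerve, vessels and connective tissue that lay in the captured outlines. In such a sample, fewer cells of a type and less RNA per cell cannot be told apart.

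Small leucine-rich proteoglycans are secreted proteins with a curved leucine-rich core. They bind collagen fibrils and set fibril width and spacing, and several also bind growth factors. Decorin and biglycan carry chondroitin or dermatan sulphate chains and bind transforming growth factor beta, while lumican and fibromodulin carry keratan sulphate. Pdgfra encodes the alpha receptor for platelet-derived growth factors and in muscle marks the mesenchymal progenitors of the interstitium. Gsn encodes gelsolin, an actin-severing protein made both inside cells and as a secreted form, and it is not restricted to fibroblasts. Extraocular muscles are known for abundant connective tissue between thin fibres, and the neuromuscular junction for a cap of terminal Schwann cells and of fibroblast-like cells.

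Values below are log2(intensity + 16) after quantile normalization, in log2 units. Group values are means ± SD over 4 arrays, differences are log2 ± SE from limma, and the threshold is an adjusted p of 0.05 over all 10416 genes. Because of the added 16, folds of dim genes come out smaller than they are. The deposited intensities had the same trimmed mean on every array, 150.06 to 150.08, while medians ran from 33.43 to 57.04, with EOM_fiber 15 at the top. Within groups the log2 values of 2 arrays correlated at 0.867 to 0.949 over all probe sets except controls. The precision rests on 4 arrays per group, and the parts of animal and of RNA amount in the spread were not tested. Defining genes were set against the labels, and 6 of 6 tested junction genes were higher at the junction than in fibre in EOM and in TA, and all 8 genes of the skeletal muscle list were above the array median in at least 1 array of every group, except Myh13 at TA junctions. Musk, a receptor gene of the junction, was above the median in no junction array. EOM fibre also held more junction signal than TA fibre, as given beside the interaction, and the junction call of Chrnb1 in EOM was lost without any 1 of the rats. Among the arrays, EOM_fiber 15 was the lowest of its group for 5 of the 8 genes and EOM_synapse 29 the highest of its group for 6.

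The 8 genes did not move as a block. The 4 comparisons share groups, so their counts are not independent. In fibre regions 5 of the 8 were higher in EOM than in TA (Lum, Dcn, Ogn, Pdgfra and Gsn), against 8.4% of all genes, and 0 were lower, against 7.15%. The median difference of the 8 was 1.60, and that of all genes 0.03. At the junctions 2 were higher in EOM (Dcn and Gsn), against 7.82% of all genes, and 0 lower, against 8.61%, with medians of 0.61 for the 8 and 0.01 for all genes. Within EOM 3 were higher at the junction than in fibre (Lum, Dcn and Pdgfra), against 5.62% of all genes, and 0 lower, against 4.51%, with medians of 1.03 and -0.04. Within TA 4 were higher at the junction (Lum, Dcn, Ogn and Pdgfra), against 6.7% of all genes, and 0 lower, against 3.53%, with medians of 1.17 and -0.01. In these 4 comparisons limma gave no unadjusted p under 0.05 for a lower level of any of the 8. The counts of members higher at an unadjusted p under 0.05 were 5, 4, 4 and 4. The share of all genes at that unadjusted cut was not counted, so these counts have no background beside them. Bgn, Fmod and Prelp passed the threshold in none of the 4.

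**Figure D1:**
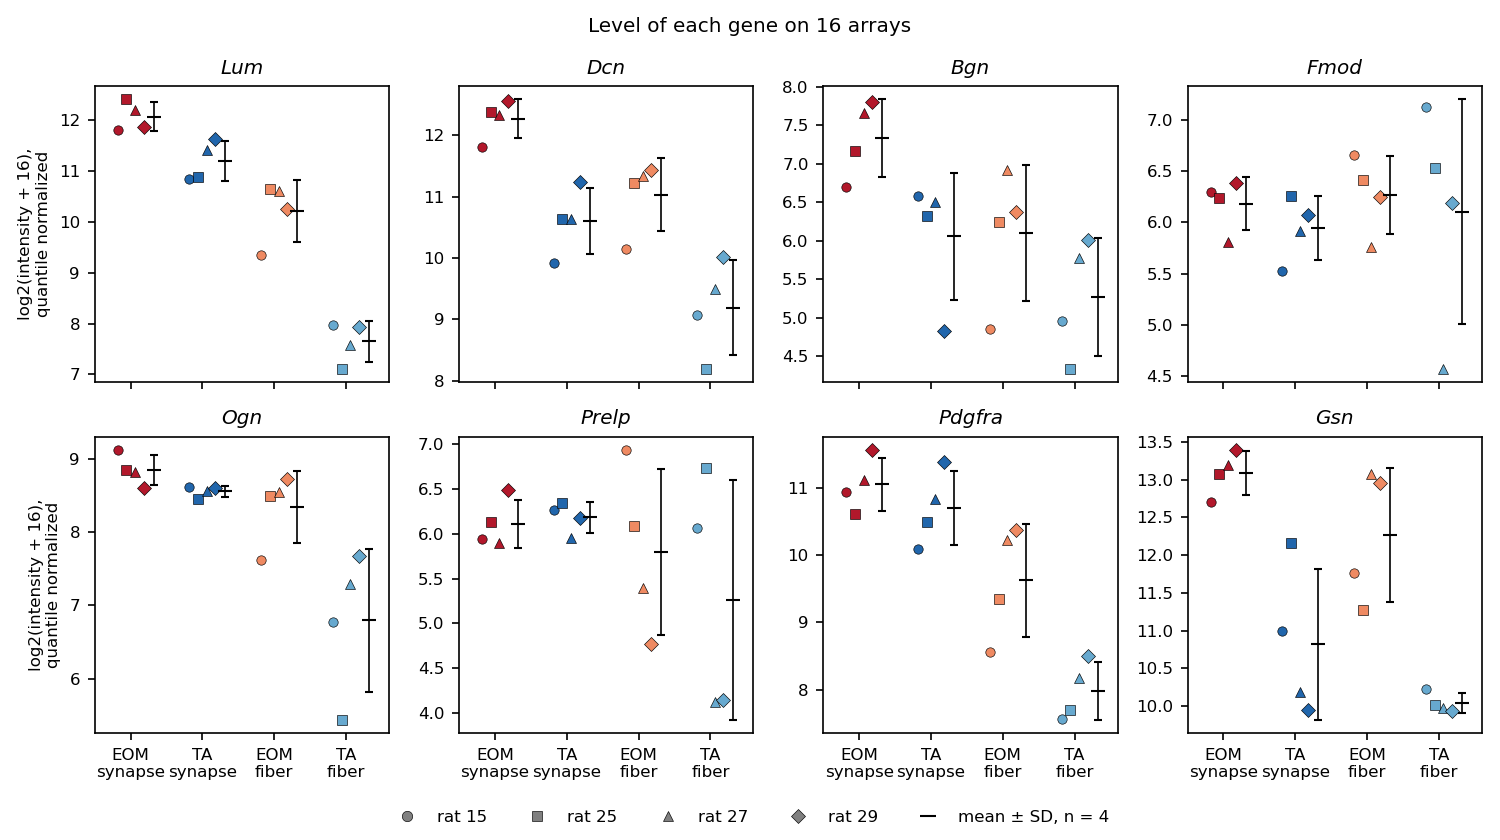
Level of each of the 8 genes on 16 arrays, as quantile-normalized log2(intensity + 16) on separate vertical scales. Marker shapes are the 4 rats, colours the 4 groups, and bars the mean ± SD of 4 arrays. Lum and Pdgfra are lowest in TA_fiber, with no overlap with another group, while Fmod and Prelp overlap across all groups.

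The windows around the start sites are shown for Lum and Pdgfra, which passed the threshold by region, and for Gsn, which passed it by muscle alone. They are RefSeq sequences of assembly GRCr8, 250 bases before to 50 after the start, on the strand of the gene. Matches of 5 short motifs on either strand are in capitals. The motifs were the TATA box, spelled TATAAA, the E-box, spelled CANNTG, the AP-1 site, spelled TGANTCA, the GC box, spelled GGGCGG, and the N-box of junction genes, spelled CCGGAA. No match overlapped one of another motif. Ogn and Fmod also had a window, which makes 5 of the 8 genes.
Lum, chr7:34245456-34245755, plus strand: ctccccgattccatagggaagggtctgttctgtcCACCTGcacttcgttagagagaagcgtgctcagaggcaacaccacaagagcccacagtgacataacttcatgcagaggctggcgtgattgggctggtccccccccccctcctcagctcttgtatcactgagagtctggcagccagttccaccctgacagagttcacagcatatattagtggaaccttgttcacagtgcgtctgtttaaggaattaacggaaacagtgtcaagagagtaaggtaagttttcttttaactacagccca
Pdgfra, chr14:33408467-33408766, minus strand: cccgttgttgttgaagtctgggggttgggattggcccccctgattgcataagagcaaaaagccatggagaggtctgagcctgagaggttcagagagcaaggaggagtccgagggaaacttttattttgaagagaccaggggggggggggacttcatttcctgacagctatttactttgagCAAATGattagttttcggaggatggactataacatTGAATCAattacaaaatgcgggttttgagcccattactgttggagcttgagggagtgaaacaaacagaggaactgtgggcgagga
Gsn, chr3:39008682-39008981, plus strand: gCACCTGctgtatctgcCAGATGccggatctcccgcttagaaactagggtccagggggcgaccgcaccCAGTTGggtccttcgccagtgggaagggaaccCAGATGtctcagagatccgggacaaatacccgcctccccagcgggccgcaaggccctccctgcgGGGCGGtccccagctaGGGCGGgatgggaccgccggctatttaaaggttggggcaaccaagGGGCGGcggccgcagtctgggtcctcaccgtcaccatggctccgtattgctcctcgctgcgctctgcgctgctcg
The Lum window held 1 E-box at bases -216 to -211 from the start, and the Pdgfra window 1 E-box at -70 to -65 and 1 AP-1 site at -35 to -29. The Gsn window held 4 E-boxes between -249 and -145 and 3 GC boxes between -86 and -20. Of 33469 windows of the same length, 72.1% held an E-box, 33.1% a GC box, 15% an N-box, 14.2% a TATA box and 7.33% an AP-1 site. G and C made up 66.3% of the Gsn window, 50.7% of the Lum window and 48% of the Pdgfra window, beside a median of 51.7% over all windows. These matches describe letters in a window and were not tested against the levels.

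Lum, whose product lumican organises collagen fibrils, had the largest junction difference of the 8. Its level was 11.80, 12.41, 12.20 and 11.87 at the EOM junctions of rats 15, 25, 27 and 29, and 10.84, 10.88, 11.42 and 11.63 at the TA junctions of the same rats. In fibre regions it was 9.35, 10.65, 10.61 and 10.25 in EOM and 7.98, 7.11, 7.57 and 7.94 in TA. The 4 groups did not overlap at any step of this order, and TA fibre stood far below the rest. At the TA junction Lum was higher than in TA fibre by 3.55 ± 0.29 (11.7-fold, adjusted p = 2.89e-06), and at the EOM junction higher than in EOM fibre by 1.85 ± 0.29 (3.61-fold, adjusted p = 0.00129). EOM fibre exceeded TA fibre by 2.57 ± 0.29 (5.92-fold, adjusted p = 8.15e-05). Between the junctions the difference was 0.87 ± 0.29 and missed the threshold (adjusted p = 0.0586), although all 4 rats had the higher level in EOM. The 95% interval of that difference was 0.24 to 1.5. It passed the threshold in 5 of 23 alternatives. These were the rat as a random effect (adjusted p = 0.0479), the 8 junction arrays alone (0.0494), the filter at 8 arrays (0.0456), a pseudocount of 64 (0.0108) and a trend and robust prior (0.0138). Every fit that left out an array or a rat missed it (adjusted p = 0.0602 to 0.195). Over all alternatives the difference went down to 0.63 and the adjusted p up to 0.279.

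Pdgfra, the receptor gene that marks interstitial progenitors, had the same order of groups as Lum. It was at 10.94, 10.61, 11.11 and 11.56 at EOM junctions and at 10.09, 10.49, 10.84 and 11.38 at TA junctions. In fibre it was at 8.56, 9.35, 10.23 and 10.37 in EOM and at 7.57, 7.70, 8.17 and 8.50 in TA. The ranges of the 2 junction groups overlapped, as did those of TA junctions and EOM fibre, while every TA fibre array lay below every other array. Pdgfra was higher at TA junctions than in TA fibre by 2.72 ± 0.22 (6.58-fold, adjusted p = 2.34e-06) and at the EOM junction than in EOM fibre by 1.43 ± 0.22 (2.69-fold, adjusted p = 0.00107). In fibre it was higher in EOM than in TA by 1.64 ± 0.22 (3.13-fold, adjusted p = 0.000257). Between the junctions it differed by 0.35 ± 0.22 (adjusted p = 0.308), with a 95% interval of -0.12 to 0.83.

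Dcn, which encodes the collagen- and growth factor-binding decorin, was the 1 gene of the 8 past the threshold in all 4 comparisons. Its level was 11.81, 12.37, 12.32 and 12.55 at EOM junctions and 9.91, 10.63, 10.64 and 11.23 at TA junctions. In fibre it was 10.14, 11.22, 11.34 and 11.43 in EOM and 9.07, 8.20, 9.49 and 10.01 in TA. All EOM junction arrays lay above all others, EOM fibre overlapped TA junctions, and TA fibre overlapped TA junctions through the array of rat 29. Dcn was higher in EOM than in TA by 1.84 ± 0.28 in fibre (3.58-fold, adjusted p = 0.000607) and by 1.66 ± 0.28 at the junction (3.15-fold, adjusted p = 0.00113). The junction exceeded fibre by 1.41 ± 0.28 in TA (adjusted p = 0.00486) and by 1.23 ± 0.28 in EOM (adjusted p = 0.0123). The last of these missed the threshold without the rat as a block (adjusted p = 0.0528), without EOM_synapse 25 (1.11, 0.0509), and without rat 15 (1.09, 0.0925), rat 27 (1.31, 0.0579) or rat 29 (1.27, 0.0623). It also missed it when arrays were only median centred (1.16, 0.0797).

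Gsn, the gelsolin gene, differed by muscle and not, past the threshold, by region. It was at 12.70, 13.08, 13.20 and 13.39 at EOM junctions and at 11, 12.16, 10.18 and 9.94 at TA junctions. In fibre it was at 11.76, 11.27, 13.08 and 12.96 in EOM and at 10.23, 10.01, 9.97 and 9.93 in TA. Every EOM array exceeded every TA array of the same region, but rat 25 stood high among TA junctions and EOM fibre split into 2 lower and 2 higher arrays. Gsn was higher in EOM by 2.27 ± 0.48 at the junction (4.83-fold, adjusted p = 0.00512) and by 2.23 ± 0.48 in fibre (4.70-fold, adjusted p = 0.00625). The junction call was lost without rat 29 (1.88, adjusted p = 0.0522) and the fibre call without rat 27 (1.94, adjusted p = 0.0514). Junction and fibre differed by 0.82 ± 0.48 in EOM and 0.79 ± 0.48 in TA (adjusted p = 0.31 and 0.362). The 95% intervals of these, -0.20 to 1.85 and -0.24 to 1.81, do not exclude a difference of the size seen for Dcn.

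Ogn, which encodes osteoglycin, is read by 4 probe sets, and the brightest, 1390450_a_at, stood for the gene. On it the level was 9.12, 8.85, 8.82 and 8.60 at EOM junctions, 8.62, 8.46, 8.56 and 8.60 at TA junctions, 7.62, 8.49, 8.55 and 8.72 in EOM fibre, and 6.78, 5.44, 7.30 and 7.67 in TA fibre. The first 3 groups overlapped, and TA fibre lay lower, overlapping EOM fibre alone. Ogn was higher at TA junctions than in TA fibre by 1.76 ± 0.36 (3.39-fold, adjusted p = 0.00605), and higher in EOM than in TA fibre by 1.55 ± 0.36 (2.93-fold, adjusted p = 0.00985). The other 3 probe sets gave 1.11 to 1.23 for the TA junction against fibre, with 1385248_a_at past the threshold (1.11, adjusted p = 0.0223) and 1376749_at and 1383263_at not (adjusted p = 0.118 and 0.174). For EOM against TA fibre they gave 0.37, 0.61 and 0.82, none past the threshold (adjusted p = 0.651, 0.418 and 0.0652). The fibre call was also lost without rat 25 (1.05, adjusted p = 0.0549), in the fit of the 8 fibre arrays alone (1.55, 0.0666) and with the mean of the probe sets (0.84, 0.0651). Within EOM, junction and fibre differed by 0.50 ± 0.36 (adjusted p = 0.419), and the 2 junction groups by 0.29 ± 0.36 (adjusted p = 0.636).

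Bgn, the biglycan gene, was near the middle of the arrays' intensities, above the array median on 11 of 16. It was at 6.70, 7.16, 7.66 and 7.81 at EOM junctions, at 6.58, 6.32, 6.50 and 4.83 at TA junctions, at 4.85, 6.24, 6.92 and 6.38 in EOM fibre, and at 4.96, 4.34, 5.77 and 6.01 in TA fibre. EOM junctions lay above TA junctions and TA fibre on every array, and the other groups overlapped. The largest differences were 1.27 ± 0.45 between the junctions (EOM minus TA, adjusted p = 0.071) and 1.24 ± 0.45 between EOM junction and EOM fibre (adjusted p = 0.103), each positive in 4 of 4 rats. EOM and TA fibre differed by 0.83 ± 0.45 (adjusted p = 0.247), and TA junction and fibre by 0.79 ± 0.45 (adjusted p = 0.327). The difference between junctions passed the threshold on the values as deposited (1.39, adjusted p = 0.0355), at a pseudocount of 64 (0.84, 0.0108), with a trend and robust prior (0.0417), and without TA_synapse 15 (1.69, adjusted p = 0.0248) or without rat 15 (1.66, 0.0484). It was smallest without TA_synapse 29 (0.70) or rat 29 (0.71), with adjusted p up to 0.306. The EOM junction against fibre passed it at a pseudocount of 64 (0.81, adjusted p = 0.0192) and in the 8 EOM arrays alone (0.0247). That between TA junction and fibre passed it without TA_synapse 29, the 1 low array (1.36, adjusted p = 0.0335), and ran from 0.37 to 1.45 over the fits that left out an array or a rat.

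Fmod and Prelp, neighbours in the rat genome, were dim and showed no difference past the threshold. Fmod, the fibromodulin gene, ran from 5.80 to 6.38 at EOM junctions, 5.52 to 6.26 at TA junctions, 5.76 to 6.66 in EOM fibre and 4.57 to 7.13 in TA fibre. Its 4 differences lay between -0.16 and 0.24 (adjusted p = 0.685 to 0.905). Their 95% intervals ran from -0.88 to 0.96 at the widest, so a change of the size of Lum in fibre was outside them. Prelp, the prolargin gene, ran from 5.89 to 6.48 at EOM junctions, 5.95 to 6.34 at TA junctions, 4.77 to 6.93 in EOM fibre and 4.12 to 6.73 in TA fibre. Its groups overlapped, and the fibre arrays of each muscle spread more than the junction arrays. Its largest difference was 0.92 ± 0.44, TA junction against fibre, with a 95% interval of -0.03 to 1.86 (adjusted p = 0.227). That value moved to 2.14 at a pseudocount of 1 and to 0.37 at one of 64, and the difference between EOM and TA fibre (0.53 ± 0.44, adjusted p = 0.463) to 1.5 and 0.20. Neither passed the threshold in any alternative.

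**Figure D2:**
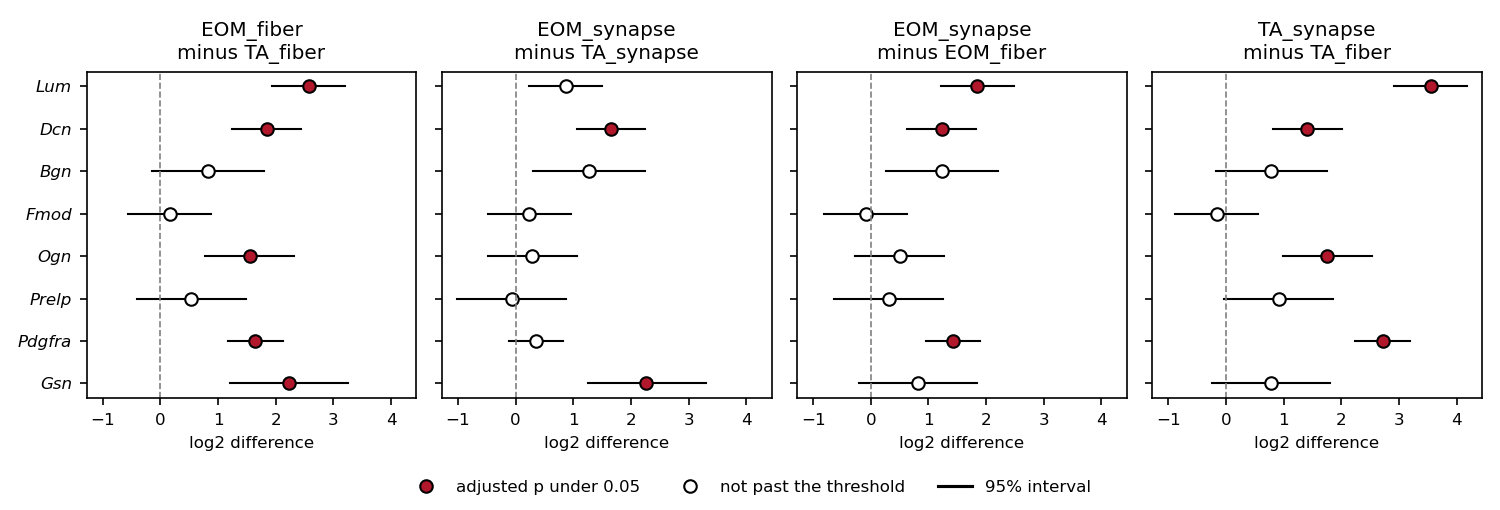
Log2 difference of each gene in the 4 comparisons, with 95% intervals from limma; filled points passed an adjusted p of 0.05 over all genes. Lum and Pdgfra are far from 0 in the 1st, 3rd and 4th panels, Gsn in the 1st and 2nd, Dcn in all 4, and Fmod and Prelp in none.

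Whether the junction difference itself differed between the muscles was tested as an interaction, the EOM difference minus the TA difference. With limma 0 of the 8 genes passed, against 0.922% of all genes, and 3 had an unadjusted p under 0.05, all with the smaller difference in EOM. How many of all genes met that unadjusted cut was not counted. The median over the 8 was -0.39 and that over all genes -0.02. The interaction of Lum was -1.69 ± 0.42 (adjusted p = 0.0851), with -0.42, -2.01, -2.27 and -2.07 in rats 15, 25, 27 and 29. That of Pdgfra was -1.29 ± 0.31 (adjusted p = 0.0817), with -0.14, -1.53, -1.80 and -1.69 in the same rats. The sign was the same in all 4 rats for both genes, with rat 15 near 0. Both passed the threshold on the values as deposited (Lum -1.99, adjusted p = 0.0416; Pdgfra -1.51, 0.039). Without EOM_fiber 15 both passed as well (Lum -1.95, adjusted p = 0.0394; Pdgfra -1.52, 0.0152). Lum also passed without TA_fiber 15 (-1.97, 0.0394), and Pdgfra without EOM_synapse 15 (-1.48, 0.0426) or without all arrays of rat 15 (-1.67, 0.0431). In all, Lum passed in 5 of 30 alternatives and Pdgfra in 6 of 30, and the others missed the threshold. The adjusted p from limma went up to 0.409 for Lum and 0.437 for Pdgfra. Ogn had -1.26 ± 0.51 (adjusted p = 0.36). Among 6 tested junction genes the median interaction was -0.95. With limma 1 of them passed the threshold, with the smaller difference in EOM, and 0 passed in the other direction. Of 6 tested, 3 were higher in EOM than in TA fibre: Chrna1 (3.52 ± 0.32, adjusted p = 1.55e-05), Chrnd (1.81 ± 0.30, 0.00107) and Chrnb1 (0.85 ± 0.19, 0.00755), all acetylcholine receptor subunit genes. The calls of Chrna1 and Chrnd held in all alternatives, and that of Chrnb1 was lost without rat 27 and in the 8 fibre arrays alone. Chrna1 had an interaction of -2.89 ± 0.45 (adjusted p = 0.00698), lost without rat 15 or 29 and at a pseudocount of 1. Summed intensity of the 7 junction genes was 13110 to 15030 at EOM junctions, 14920 to 15720 at TA junctions, 1146 to 1628 in EOM fibre and 400.5 to 461.9 in TA fibre, so the fibre groups did not overlap. The part of this junction signal in the fibre and interaction values of the 8 genes was not tested. For Dcn and Gsn the interaction was -0.18 ± 0.39 and 0.04 ± 0.68, with 95% intervals of -1.02 to 0.66 and -1.41 to 1.49.

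**Figure D3:**
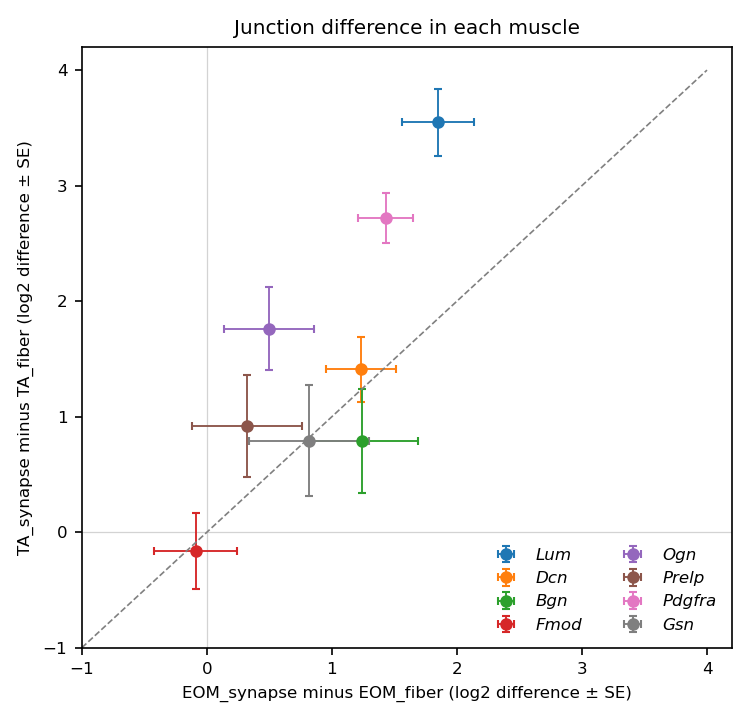
Junction minus fibre difference of each gene in EOM (horizontal) and in TA (vertical), in log2 units with SE bars; the dashed line marks equal differences. Lum (1.85 in EOM, 3.55 in TA), Pdgfra (1.43, 2.72) and Ogn (0.50, 1.76) lie above the line, and Dcn (1.23, 1.41) and Gsn (0.82, 0.79) on or near it.

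For each gene, the non-members with the highest Pearson r over the 16 arrays are given as a description, since arrays of a group and of a rat are not independent points. For Lum they were Gas7 (0.974), Ctsh (0.969) and Scn7a (0.968), and for Pdgfra Fam114a1 (0.961), Matn2 (0.960) and Plekha5 (0.958). For Dcn they were Anxa1 (0.955), Rgmb (0.954) and F3 (0.952), for Ogn Fndc3c1 (0.942), Hsd17b12 (0.936) and Antxr2 (0.933), and for Gsn Plekha1 (0.928), Calu (0.917) and Rab11fip5 (0.912). The highest values were lower for Bgn (Zcchc14 and Stard13, 0.914, and Slc39a10, 0.880), Prelp (Trmt61a, 0.885) and Fmod (Golga2, 0.838). Matn2, a matrilin gene of the extracellular matrix, was itself higher at the junction than in fibre by 4.69 in TA and 2.93 in EOM, and Scn7a, a sodium channel gene, by 4.06 and 3.11.

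Other members of the proteoglycan family were few on these arrays. Of 11 listed, 8 had a named probe set and 4 passed the filter. Podnl1 and Chad were above the array median in no array, and Optc and Tsku in none of 3 of the 4 groups. In fibre 3 of the 4 were higher in EOM than in TA and 0 lower: Podn, which encodes podocan, by 2.03 ± 0.30 (adjusted p = 0.000514), Omd, which encodes osteomodulin, by 1.46 ± 0.35 (0.0117), and Ecm2 by 1.18 ± 0.29 (0.014). Omd and Ecm2 were higher in EOM at the junction too, by 1.35 and 1.22, and Ecm2 was higher at the EOM junction than in EOM fibre by 1.0. The Podn call held in all alternatives, that of Omd in fibre was lost without rat 27, and the other 4 were lost in 2 to 13 of 23 alternatives, each of them without at least 1 rat. Aspn, the asporin gene, passed in none, with 0.13 ± 0.37 in fibre. In TA 0 of the 4 passed between junction and fibre with limma, and 1 had an unadjusted p under 0.05 (Ecm2, 0.96). In the gene order of GRCr8, Dcn and Lum stand side by side, as do Ogn, Omd and Aspn, and Prelp and Fmod. Neighbours did not all pass the threshold together. Ogn was higher at TA junctions than in TA fibre by 1.76, while Omd had 0.60 ± 0.35 (adjusted p = 0.336) and Aspn -0.64 ± 0.37 (0.328). The limma interval of Omd, -0.15 to 1.34, overlapped that of Ogn, 0.99 to 2.53. It also held the 1.11 to 1.23 of the other Ogn probe sets, so Omd was not shown to differ from Ogn. Aspn was above the array median in no TA junction array, so its value lies low on the scale. Differences between neighbouring genes were not tested.

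Enzymes that build the sugar chains of these proteoglycans gave few calls. With limma 0 of 13 tested passed between EOM and TA in fibre or at the junction, while Csgalnact1 (0.92, adjusted p = 0.0555) and Dsel (0.55) in fibre had an unadjusted p under 0.05. At the junction against fibre, 2 were higher in EOM (Dsel, 0.88 and Chsy1, 0.85) and 3 in TA (Chpf, 1.33, Dsel, 1.11 and Chsy1, 0.95), with 0 lower. Chsy1 and Chpf extend chondroitin chains, and Dsel converts them towards dermatan sulphate. All 5 calls were lost without rat 27. Dsel in EOM was lost without any 1 of the 4 rats and in 15 of 23 alternatives, Chsy1 in EOM also without rat 25 or 29, Chpf in TA also without rat 15 or 29, Dsel in TA also without rat 25 and Chsy1 in TA also without rat 29.

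The collagens that the proteoglycans bind, with their cross-linking enzymes, were tested as 17 genes. In TA 9 were higher at the junction than in fibre, 0 lower, led by Col6a3 (2.95 ± 0.30), Col1a2 (2.56 ± 0.27) and Col6a1 (1.70 ± 0.21), with adjusted p = 1.95e-05, 3.43e-05 and 0.000113. In EOM 3 were higher (Col6a3, 1.24, Col5a2, 1.14 and Col1a2, 1.06) and 0 lower. In fibre 6 were higher in EOM than in TA, among them Lox, the lysyl oxidase gene (1.45), and Col1a2 (1.31). At the junction 1 was higher in EOM (Serpinh1, a collagen chaperone gene, 1.10) and 1 lower (Col6a3, -1.78 ± 0.30, adjusted p = 0.00113). Col1a1 had an interaction of -1.60 ± 0.24 (adjusted p = 0.00528), the same sign as Lum and Pdgfra, and that call was lost without rat 15, 27 or 29, with median centring, with the mean of its probe sets and without the rat as a block (adjusted p = 0.736). Col6a3, Col1a2 and Col6a1 in TA and Col6a3 between the junctions held in all alternatives. The other 6 calls in TA (Col1a1, Col3a1, Col5a1, Col5a2, Col14a1 and Loxl2) were lost without the rat as a block, and all of these but Loxl2 also with the rat as a random effect. Col14a1 was lost in 15 of 23 alternatives, without any 1 of the 4 rats among them, and Loxl2 in 7, among them without rat 15 or 27. Serpinh1 between the junctions was lost in 7, without the block and without rat 25, 27 or 29 among them (adjusted p up to 0.16). In EOM fibre against TA fibre and in EOM junction against fibre, every call of the list was lost in some, that of Lox in 14 of 23 and that of Col1a2 in EOM in 12 of 23. Summed intensity of the 17 ran from 5704 to 17890 over EOM junction arrays, 6832 to 19200 over TA junction arrays, 3623 to 14940 over EOM fibre arrays and 2093 to 7452 over TA fibre arrays, so rats differed widely within a group.

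Proteases that act on the proteoglycans, and their inhibitors, were higher in several comparisons and lower in none. Of 10 tested, 7 were higher in EOM than in TA fibre, led by Adamts1 (1.84 ± 0.20), Bmp1 (1.57 ± 0.30) and Mmp2 (1.33 ± 0.22), with adjusted p = 6.48e-05, 0.00332 and 0.00107. The brightest probe set of Bmp1 was above the array median in no TA fibre array, so its TA fibre level lies low on the scale. At the junction 3 were higher in EOM (Timp3, 1.54, Adamts5, 1.22 and Adamts1, 0.96). At the junction against fibre 4 were higher in TA, led by Mmp2 (1.98 ± 0.22) and Adamts1 (1.91 ± 0.20), and 2 in EOM (Adamts1, 1.02 and Mmp2, 0.9). The calls of Adamts1, Bmp1 and Mmp2 in fibre, of Timp3 and Adamts5 between the junctions, and of Mmp2 and Adamts1 in TA held in all alternatives. Those in EOM were lost without rat 15 or 25, and the other 4 in fibre without rat 25 or 27.

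**Figure D4:**
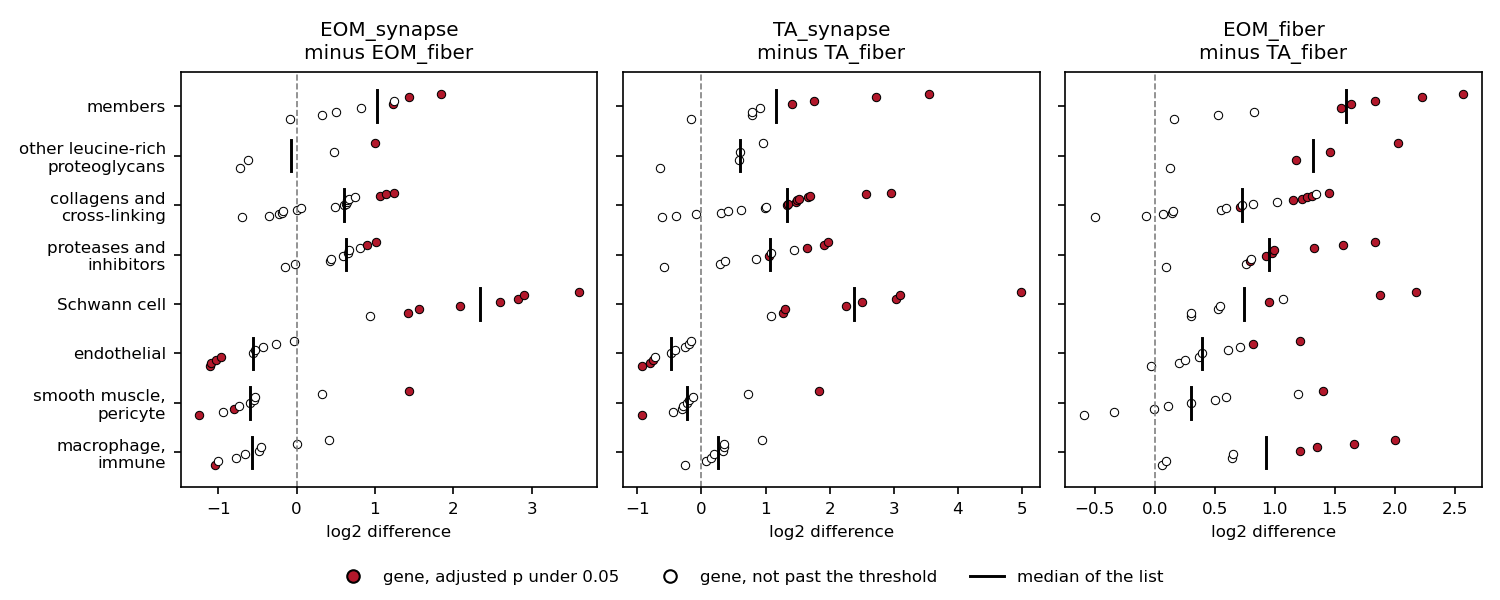
Log2 difference of every tested gene of 8 lists in 3 comparisons; filled points passed an adjusted p of 0.05 and vertical bars are list medians. The 8 genes described here (members) and the Schwann cell list lie mostly right of 0 in all 3 panels, while endothelial genes lie mostly left of 0 in the junction panels.

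Receptors and growth factors that bind the proteoglycans were mixed. Of 10 tested, 3 were higher in EOM than in TA fibre (Lrp1, an endocytic receptor for decorin, 1.72, Egfr, 1.37 and Igf1r, 1.0), and 3 were higher at TA junctions than in TA fibre (Egfr, 1.78, Lrp1, 1.4 and Ccn2, 1.11). Between the junctions Igf1r was higher in EOM (1.12) and Tgfb2, a transforming growth factor beta gene, lower (-1.46 ± 0.20, adjusted p = 0.000215). Among 3 tested PDGF genes, Pdgfa, a ligand gene for the Pdgfra receptor, was higher at TA junctions than in TA fibre by 2.28 ± 0.34 (adjusted p = 0.000591) and lower at EOM than at TA junctions by 1.23 on the log2 scale (-1.23 ± 0.34, adjusted p = 0.0241). Pdgfrb, the beta receptor gene that marks pericytes, was lower at the TA junction (-1.03 ± 0.28, adjusted p = 0.0287), where Pdgfra was higher. The brightest probe set of Pdgfrb was above the array median in no TA junction array, so this value lies low on the scale. Its difference ran from -2.13 to -0.45 over the alternatives. Of 5 tested relatives and actin partners of gelsolin, Vil1 was higher and Svil lower in EOM, in fibre (2.13 and -0.85) and at the junction (1.46 and -1.02), and Capg was higher at the EOM junction than in EOM fibre (1.12). Vil1 was above the array median in no TA junction array, so its level there lies low on the scale. The calls of Lrp1 in fibre, Tgfb2 and Svil between the junctions and Pdgfa in TA held in all alternatives. Those of Ccn2, Pdgfrb, Capg and Vil1 between the junctions were lost in 13 to 15, Pdgfa between the junctions in 7, both of Egfr without rat 15, and Vil1 in fibre without rat 27.

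Fibroblast markers other than Pdgfra and Gsn were partly in step with them. Of 12 tested, 8 were higher in EOM than in TA fibre, led by Mfap5 (2.17), Dpt (1.57) and Pi16 (1.45). At the junction 3 were higher in EOM (Dpt, 2.14, Mfap5, 1.75 and Vim, 0.86). At the junction against fibre 4 of 12 were higher in TA (Col1a2, 2.56, Col1a1, 1.66, Col3a1, 1.49 and Vim, 1.09). In EOM 2 were higher (Col1a2, 1.06 and Vim, 1.01) and 1 lower (Pi16, -0.92). The calls of Mfap5, Dpt and Pi16 between the muscles and of Col1a2 and Vim in TA held in all alternatives. Those of Col1a1 and Col3a1 in TA were lost without the rat as a block and with the rat as a random effect (adjusted p up to 0.232 and 0.292), while those of Col1a2, Vim and Pi16 in EOM were lost without rat 29 and that of Vim between the junctions without rat 25 or 27. Col1a1, Col1a2 and Col3a1 also belong to the collagen list. Of 5 tendon genes, Thbs4 was higher in EOM than in TA fibre (1.78) and at TA junctions than in TA fibre (3.0). Tnc was higher (1.61) and Scx lower (-1.05) at the EOM junction than in EOM fibre, and Scx was lower at EOM than at TA junctions (-1.42). In EOM fibre Tnc was above the array median in no array. Of these calls that of Thbs4 in TA held in all alternatives, both of Scx were lost without rat 27, and those of Tnc and of Thbs4 in fibre without rat 25.

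Markers of other cell types moved with some of these groups, and their part in the differences of the 8 genes was not tested. Of 8 Schwann cell genes 7 were higher at the junction than in fibre in EOM and 7 in TA, and 3 were higher in EOM than in TA fibre. Their summed intensity was 7823 to 12680 at EOM junctions, 4760 to 7011 at TA junctions, 1814 to 2798 in EOM fibre and 549 to 775 in TA fibre. Erbb3 was above the array median in no array, and Sox10 and Ngfr in no TA fibre array. S100b, Mbp, Pmp22 and Ncam1 passed in both muscles under all alternatives. Ncam1 is also a gene of the muscle fibre at the junction. The 5 perineurial and endoneurial genes summed to 6179 to 7427, 2403 to 3489, 888.5 to 1128 and 203.8 to 341.2 in the same groups, with 2 of 5 higher at the EOM junction and 1 of 5 at the TA junction than in fibre. The 1 in TA was Etv1, which was also higher in EOM at the junction against fibre and against TA in both regions, under all alternatives. The part of Etv1 in these sums was not tested. Endothelial genes went the other way at the junction, with 4 of 9 lower than fibre in EOM and 3 of 9 in TA, none of which passed with median centring. In fibre 2 of 9 were higher in EOM, with sums of 2585 to 3163 in EOM and 1575 to 2298 in TA. Of 8 macrophage and immune genes 4 were higher in EOM than in TA fibre (sums of 1491 to 2348 in EOM and 629.1 to 1138 in TA), and 1 was lower at the EOM junction than in EOM fibre. Csf1r alone of these passed under all alternatives, and it was above the array median in no TA fibre array. Of 9 smooth muscle and pericyte genes 1 was higher in EOM fibre than in TA fibre, 2 were lower at EOM than at TA junctions, and at the junction against fibre 1 was higher and 2 lower in EOM, 1 and 1 in TA. Summed intensity of 8 genes of the muscle fibre itself was lowest at EOM junctions, at 105900 to 143600. It was 151800 to 251500 at TA junctions, 166000 to 290400 in EOM fibre and 181200 to 373900 in TA fibre. The sums at EOM junctions overlapped those of none of the other groups. Gene by gene, 0 of the 8 passed in either direction between EOM junction and EOM fibre. Between the junctions 1 was higher and 1 lower in EOM, with a median difference of -0.08 over the 8. Acta1, a skeletal actin gene, was lower at EOM than at TA junctions (-1.11 ± 0.18, adjusted p = 0.000816) in all alternatives, and lower in EOM than in TA fibre (-0.69), which was lost without any 1 of the rats. Myh1 and Mb were lower at TA junctions than in TA fibre (-1.0 and -1.04), both lost without rat 25 or 29, and Myh13, a myosin gene of extraocular muscle, was higher in EOM in both regions (8.98 at the junction, 8.58 in fibre). Neither of the 2 tested adipocyte genes passed in any comparison, and Fabp4 had an unadjusted p under 0.05 at the junction against fibre in both muscles.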

How the data were processed

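Per the labels' protocols, RNA of laser-captured regions was amplified in a pair of cycles, with the product of the first set to 600 ng, labelled and hybridised to 1 array per rat, muscle and region. The deposited intensity of each probe set is on a linear scale and, judged by its trimmed mean (2% off each end), had been brought to a common level by the authors. The sources used here do not name the summarising software.

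Array medians spanned 0.564 on the log2 scale, above a limit of 0.5, so log2(intensity + 16) was quantile normalized, without 57 control probe sets. Of the others, 20832 had 1 gene in the array annotation, 436 several and 9780 were not listed; symbols were updated through the gene table of GRCr8. Testing required a level above the array median in at least 4 arrays, and the brightest tested probe set, by its mean, was taken for each gene.

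In limma 3.58.1 (R 4.3.3) the model held 4 group means and a fixed term for the rat, which left 9 residual degrees of freedom beside a prior of 4.58. For each of 5 contrasts, p-values over the 10416 genes were adjusted by the Benjamini-Hochberg method. The replicate numbers were read as animals, since both muscles of 4 rats were taken. After group means were removed, 24 same-rat pairs of arrays correlated at a mean r of 0.112 (-0.0666 to 0.245, 16 over 0.1), and 14 of 16 arrays were closest to an array of their own rat. Such correlations run over genes, not independent units, and cannot tell an animal from a shared processing batch.

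The 8 genes, the gene lists and the alternatives were chosen with earlier results of these data known. Named are all 8 genes, up to 4 genes past the threshold with the largest difference from each list in each contrast, and up to 3 genes most alike to each of the 8. Genes named for an unadjusted p or for a level below the array median were chosen after their values were seen. The fit was also run on simulated data, with independent noise around the mean of each gene and no rat effect. The use of the rat as a block was therefore not tested there. Alternatives covered the block, the arrays in the fit, the normalization, the filter, pseudocounts of 1 and 64, the probe set, the prior, and omission of every single array or rat.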

Additional observations from a re-analysis of the deposited data

Results flagged for a closer look

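In 2 of 32 groups of 4 arrays (8 genes in 4 groups), 1 array stood apart from the other 3; chance gives about 1 in 20. Dcn in EOM fibre was at 10.14 on the array of rat 15, against 11.22, 11.34 and 11.43 on the others, a gap of 0.836 of the group's range. That array also had the highest median intensity of the 16. Bgn at the TA junction was at 4.83 on the array of rat 29, against 6.32 to 6.58 on the others, a gap of 0.85 of the range.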

How the results depend on the processing

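Of 14 differences of the 8 genes past the threshold, all 14 kept their sign and 10 stayed past it in every alternative fitted for the gene as a whole; the exceptions were Ogn and Gsn in fibre, Gsn at the junction and Dcn in EOM, with the values given above. Of 991 alternative values, 36 changed sign, all of differences that had not passed. Without the replicate block, 5, 2, 2, 4 and 0 of the 8 passed (fibre, junctions, EOM, TA and interaction), and 1383, 1474, 831, 903 and 73 of all genes. At a pseudocount of 64, and with a trend and robust prior, 4 passed between the junctions and 2 in the interaction, and 2 in the interaction as deposited. Over fits that left out an array or a rat, 1 (without rat 29) to 3 passed between the junctions and 0 to 2 in the interaction.

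Of all genes, those fits gave 924 to 1450 for fibre, 903 to 1383 for junctions, 475 to 936 in EOM, 586 to 915 in TA and 25 to 99 in the interaction. The arrays of the comparison alone gave 582 for fibre and 606 in TA. Median centring gave 1139 for junctions, 689 in EOM (79.4% higher, 55.5% as reported) and 56 in the interaction, a pseudocount of 1 gave 46 there, one of 64 gave 218, and the trend and robust prior 205. As deposited, the median of all genes in fibre moved to 0.11.

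Sign changes were these. The Fmod interaction was -0.09 as deposited and -0.07 at a pseudocount of 1, the Gsn interaction -0.18 as deposited and -0.02 median centred, and Ogn between junctions -0.13 on probe set 1383263_at. With arrays or rats left out, Fmod ran from -0.25 to 0.50 in fibre, -0.07 to 0.50 between junctions, -0.19 to 0.00 in EOM, -0.66 to 0.32 in TA and -0.32 to 0.53 in the interaction. Prelp ran from -0.43 to 0.21 between junctions and -0.15 to 0.75 in EOM, and the interactions of Dcn from -0.52 to 0.19, Bgn -0.27 to 0.95 and Gsn -0.44 to 0.60. The cause was not tested.

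For genes of the lists, alternatives were chosen after seeing the data. Of 150 calls, 150 kept their sign, 70 stayed past the threshold in every leave-out fit and 58 in every alternative. In TA, Col1a1, Col3a1, Col5a1, Col5a2 and Col14a1 lost theirs without the replicate block and with it as a random effect, and Loxl2 without it.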
